A study of Mus musculus with 9 samples.

Results

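The neighbouring genes Apobec3, Rpl3, Cbx6 and Cbx7 of mouse Chromosome 15 were followed across 3 strains. Their members were all probesets, the sets of short probes that together report 1 transcript, to which the array's annotation gives 1 of these symbols. There were 6 such probesets of 41345 on the array: 1 for Apobec3, 3 for Rpl3, 1 for Cbx7, and 1 that Cbx6 shares with Npcd and Nptxr. Apobec3 and Rpl3 were chosen by their log2 differences between the strain BcA86 and the other strains in these same arrays, and Cbx6 and Cbx7 were taken as nearby genes for comparison, so the BcA86 values of the members are a description and carry no test. The data went against the choice of genes in a pair of ways: Cbx7 was lower in BcA86 by about as much as Apobec3, and only 1 of the 3 Rpl3 probesets was higher.

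Whole lung of naïve, untreated mice was profiled on Affymetrix Gene 2.0 ST arrays, with 3 mice each of BcA86, CSS12 and C57BL/6J and 1 array per mouse. BcA86 is 1 inbred recombinant congenic line, mostly of C57BL/6J genome with segments from A/J. By the study's markers, some of these segments lie on Chromosomes 12 and 15. CSS12 is C57BL/6J with its Chromosome 12 replaced by that of A/J, and its Chromosome 15 is that of C57BL/6J. The study's animals were 8 to 12 weeks old, and the sex of single mice is not given in the sources used here. Values are log2 expression after robust multiarray averaging (RMA), so a difference of 1 is a doubling. Strains were compared with limma, the Benjamini-Hochberg adjustment ran over the 41345 probesets, and a probeset was called where its adjusted p was under 0.05. Array medians lay between 6.08 and 6.13, and no 2 arrays correlated below 0.9857. The Y-linked gene Kdm5d lay at 8.30 to 8.38 in BcA86, 8.28 to 8.30 in CSS12 and 8.07 to 8.30 in C57BL/6J. Xist lay at 4.35 to 4.59 in BcA86, 4.59 to 4.69 in CSS12 and 4.50 to 4.65 in C57BL/6J. The strains lay close together in these sex-linked genes. Of 37 probesets with 1 symbol on the Y chromosome, 0 were called in BcA86 or CSS12 against C57BL/6J. In BcA86 against CSS12, 6 of the 37 (16.2%) were called, all higher, beside 0.445% of all probesets called higher. With 1 probeset per gene it was 2 of 17. Surfactant and other epithelial genes of the lung were bright in every array, with list means of 11.53 to 11.60 in BcA86, 11.59 to 11.61 in CSS12 and 11.61 to 11.65 in C57BL/6J. The array's probes were designed on a reference genome, so a lower transcript level and a poorer match of A/J sequence to the probes cannot be told apart here. In whole lung, fewer cells of a type and less RNA per cell cannot be told apart either.

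Apobec3 encodes a cytidine deaminase that is packaged into retroviral particles and restricts retroviruses of the mouse, and the mouse has a single copy of it where primates have a cluster. It is best known from B cells and other lymphoid cells, and inbred strains are known to carry alleles that differ in transcript level and exon use. Rpl3 encodes a protein of the large ribosomal subunit that lies near the site of peptide bond formation. Cbx6 and Cbx7 encode chromobox proteins, which bring Polycomb repressive complex 1 (PRC1) to methylated histone tails and thereby help to keep genes silent. Pdgfb, between Cbx7 and Rpl3, encodes a chain of platelet-derived growth factor.

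The reference sequences before the transcript starts of Apobec3, of its antisense neighbour D730005E14Rik and of Cbx7 are shown because these 3 adjacent transcripts were the ones that were lower in BcA86. Each is 250 bases from RefSeq on build GRCm38.p6, which is C57BL/6J sequence, written 5′ to 3′ on the strand of the gene. The A/J sequence was not analysed here. Capitals mark every match, on either strand, to 1 of 8 motifs. RefSeq gives Apobec3 a pair of windows, at chr15:79892158-79892407 and chr15:79894773-79895022 on the plus strand. D730005E14Rik has 1 at chr15:79893139-79893388 and Cbx7 has 1 at chr15:79932647-79932896, both on the minus strand. The 4 windows were:
Apobec3 window 1: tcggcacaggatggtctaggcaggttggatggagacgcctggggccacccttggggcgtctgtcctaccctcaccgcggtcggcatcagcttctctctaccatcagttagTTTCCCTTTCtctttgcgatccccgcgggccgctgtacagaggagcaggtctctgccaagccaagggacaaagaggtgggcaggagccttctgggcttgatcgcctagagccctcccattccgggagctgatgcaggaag
Apobec3 window 2: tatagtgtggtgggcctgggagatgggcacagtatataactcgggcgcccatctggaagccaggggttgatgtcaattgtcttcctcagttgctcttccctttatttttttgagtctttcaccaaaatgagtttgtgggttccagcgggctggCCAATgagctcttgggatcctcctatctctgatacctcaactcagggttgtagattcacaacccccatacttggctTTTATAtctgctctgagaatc
D730005E14Rik window 1: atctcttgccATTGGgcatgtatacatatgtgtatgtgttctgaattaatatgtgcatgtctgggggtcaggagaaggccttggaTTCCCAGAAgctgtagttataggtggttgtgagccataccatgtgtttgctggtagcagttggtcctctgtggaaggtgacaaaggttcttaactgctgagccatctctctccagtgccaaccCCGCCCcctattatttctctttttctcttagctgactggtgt
Cbx7 window 1: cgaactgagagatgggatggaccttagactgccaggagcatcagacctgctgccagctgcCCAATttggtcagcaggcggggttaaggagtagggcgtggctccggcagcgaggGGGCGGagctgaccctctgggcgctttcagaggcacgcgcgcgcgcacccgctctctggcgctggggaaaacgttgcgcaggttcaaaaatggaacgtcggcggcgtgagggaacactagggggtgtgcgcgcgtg

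The first Apobec3 window holds 1 match to the core of the interferon-stimulated response element (GAAA, any 2 bases, then GAAA), which 2.98% of 32851 RefSeq promoter windows of the same length hold. The second holds 1 CCAAT box, CCAAT, found in 33.8% of windows, and 1 TATA box, TATAAA, found in 12.4%. The window of D730005E14Rik holds 1 GAS element, TTCNNNGAA, found in 7.02% of windows, 1 Sp1 box, GGGCGG, found in 32.7%, and 1 CCAAT box. The window of Cbx7 holds 1 Sp1 box and 1 CCAAT box. None of these 4 windows holds the E-box CACGTG, the ETS core CCGGAAG or the NRF1 motif (GCGC, any base, then TGCGC). The E-box is in 6.02% of windows, the ETS core in 6.91% and the NRF1 motif in 3.74%. Where the motifs share bases they were marked once. A match is a run of letters and was not tested for binding.

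Apobec3 was about 2-fold lower in BcA86 lungs than in either other strain. Its log2 expression was 8.80, 8.64 and 8.66 in the 3 BcA86 lungs, 9.91, 10.22 and 9.85 in the CSS12 lungs, and 9.82, 9.76 and 9.75 in the C57BL/6J lungs. Every BcA86 lung lay below every lung of both other strains. The mean was 8.70 ± 0.08 in BcA86 and 9.78 ± 0.04 in C57BL/6J, and the SD of CSS12 was 0.20 (SD, n = 3 each). The difference was -1.08 (SE 0.10) from C57BL/6J, which is 2.11-fold lower, and -1.29 (SE 0.10) from CSS12, which is 2.45-fold lower. Between BcA86 and the nearest C57BL/6J lung there was a gap of 0.96.

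CSS12, whose Chromosome 15 is not from A/J, was compared with C57BL/6J as a contrast that did not choose the genes. The 3 CSS12 lungs lay above the 3 C57BL/6J lungs for Apobec3, with a gap of 0.04, and the difference of 0.22 had a 95% interval of -0.01 to 0.45. It did not pass limma's test (adjusted p = 0.497). None of the 6 member probesets passed in CSS12 against C57BL/6J, where 0.22% of all probesets did, 0.143% higher and 0.0774% lower. Without adjustment, limma gave 1 of the 6 at 0.05, which was Cbx7, beside 10.7% of all probesets, and the methods' Cyber-T test with adjustment called 0.

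Cbx7, the Polycomb gene next to Apobec3, was lower in BcA86 by a similar amount. Its log2 expression was 8.76, 8.76 and 8.80 in BcA86, 9.71, 9.64 and 9.76 in CSS12, and 10.03, 9.79 and 9.91 in C57BL/6J. The BcA86 lungs did not overlap with the other strains, and they differed among themselves less than the lungs of either other strain. The difference was -1.13 (SE 0.07) from C57BL/6J, or 2.20-fold lower, and -0.93 (SE 0.07) from CSS12, or 1.91-fold lower. In CSS12 the means were 9.71 ± 0.06, against 9.91 ± 0.12 in C57BL/6J (SD, n = 3 each), a difference of -0.20 with a 95% interval of -0.37 to -0.04. That difference did not pass the test over all probesets (adjusted p = 0.379). The gene models of Apobec3 and Cbx7 overlap in RefSeq and lie on opposite strands, and whether any probes lie in the overlap was not tested.

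The probeset that Cbx6 shares with Nptxr, a neuronal pentraxin receptor, and with Npcd, a transcript that joins the 2 genes, cannot be assigned to Cbx6 alone. It gave 7.68, 7.65 and 7.81 in BcA86, 7.89, 7.88 and 7.93 in CSS12, and 7.94, 7.83 and 7.85 in C57BL/6J. The BcA86 lungs lay below the other lungs, by a gap of 0.07 to CSS12 and of only 0.01 to C57BL/6J. The difference was -0.16 (SE 0.07) from C57BL/6J and -0.19 (SE 0.07) from CSS12, and neither was called. In CSS12 it was 0.03 above C57BL/6J, with a 95% interval of -0.12 to 0.18 (adjusted p = 0.909).

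**Figure D1:**
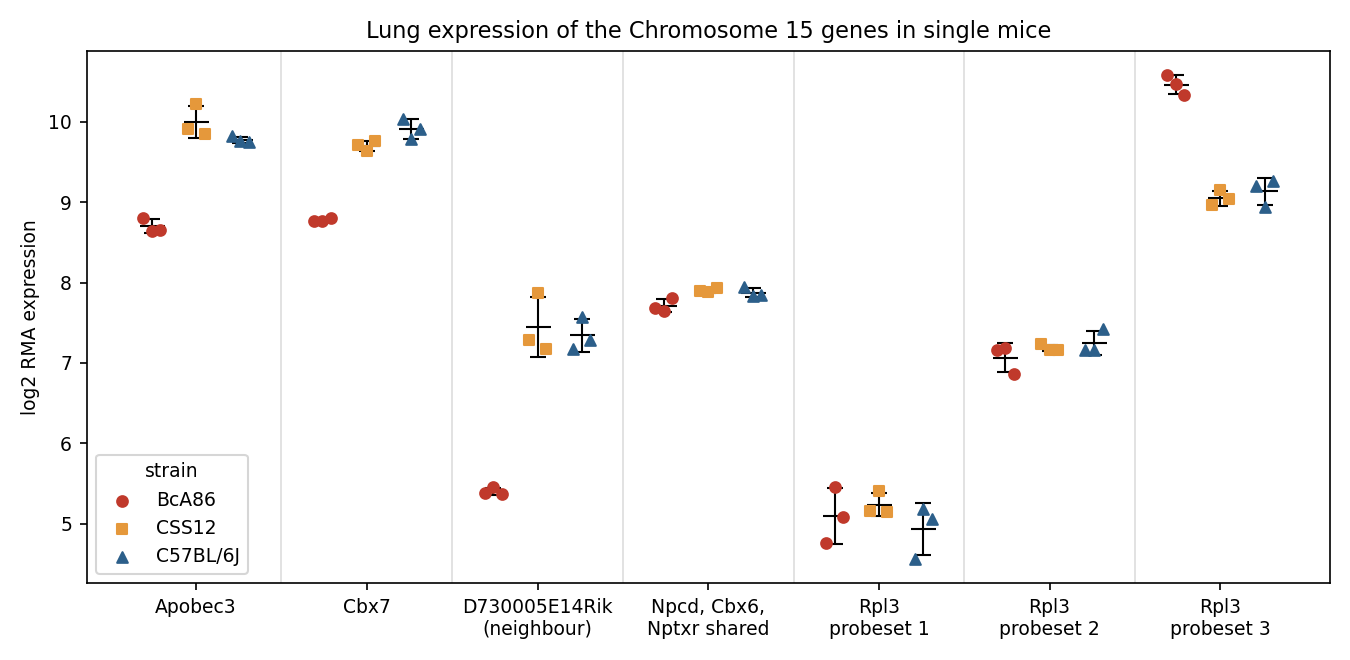
Log2 RMA expression (vertical axis) of each member probeset and of the neighbour D730005E14Rik in single mice, with BcA86 as circles, CSS12 as squares and C57BL/6J as triangles. Horizontal bars are means and error bars are SD (n = 3 each). BcA86 lies below the other strains for Apobec3, Cbx7 and D730005E14Rik and above them for Rpl3 probeset 3 only. The shared probeset lies below by gaps of 0.07 to CSS12 and 0.01 to C57BL/6J, and levels of different probesets are not comparable with each other.

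The 3 probesets named Rpl3 did not move together. The third was 2.51-fold higher in BcA86 than in C57BL/6J and 2.66-fold higher than in CSS12, while the first 2 overlapped between all strains. The third gave 10.58, 10.47 and 10.34 in BcA86, 8.96, 9.15 and 9.04 in CSS12, and 9.20, 8.94 and 9.26 in C57BL/6J. All BcA86 lungs lay above all others, with a gap of 1.08 to C57BL/6J and of 1.19 to CSS12. The differences were 1.33 (SE 0.10) from C57BL/6J and 1.41 (SE 0.10) from CSS12, and CSS12 differed from C57BL/6J by -0.08, with a 95% interval of -0.32 to 0.15 (adjusted p = 0.817).

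Rpl3 probeset 1 gave 4.76, 5.45 and 5.08 in BcA86, 5.16, 5.40 and 5.14 in CSS12, and 4.56, 5.18 and 5.06 in C57BL/6J. It lay below the median of the array in 9 of 9 arrays, which no other member did in any array, and its strains overlapped. Its differences were 0.16 (SE 0.21) between BcA86 and C57BL/6J and 0.30 between CSS12 and C57BL/6J, with a 95% interval of -0.18 to 0.77 (adjusted p = 0.66). With 1 array left out the first ran from -0.02 to 0.33, and was -0.02 without C57BL/6J replicate 1 and -0.01 without BcA86 replicate 2. The second ran from 0.11, without C57BL/6J replicate 1, to 0.42. Rpl3 probeset 2 gave 7.16, 7.18 and 6.86 in BcA86, 7.23, 7.16 and 7.16 in CSS12, and 7.16, 7.16 and 7.42 in C57BL/6J. Its strains overlapped too. The difference was -0.18 (SE 0.11) between BcA86 and C57BL/6J and -0.07 between CSS12 and C57BL/6J, with a 95% interval of -0.31 to 0.18 (adjusted p = 0.871).

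The array numbers its probesets largely by position, since 98.4% of 23327 pairs of neighbouring numbers lie on 1 chromosome. By that measure the number of the first Rpl3 probeset falls between Pdgfb and the small nucleolar RNA Snord83b, and that of the second between Snord83b and Snord43, all on Chromosome 15. The number of the third falls between Usp9x and Ddx3x, and 10 of its 10 nearest numbers with a gene belong to the X chromosome. RefSeq lists 2 Rpl3 pseudogenes on the X chromosome, and Rpl3-ps1 lies between Usp9x and Ddx3x. Rpl3 and its near-identical copies can share probes, and which copy the third probeset measures was not tested. The value called Rpl3 in BcA86 is therefore that of 1 probeset and is uncertain for the gene on Chromosome 15.

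In all, 3 of the 6 member probesets were called in BcA86 against C57BL/6J, 1 higher and 2 lower, and the same counts held against CSS12. Over the whole array 0.375% of probesets were called against C57BL/6J, 0.15% higher and 0.225% lower. Against CSS12 it was 0.716%, 0.445% higher and 0.271% lower. For Apobec3 and Rpl3 these calls follow from the choice of genes, and that of Cbx7 rests on the same arrays. The 2 comparisons share the BcA86 arrays.

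The genes around Apobec3 were then taken by position alone: the 20 nearest genes with a probeset of 1 symbol on each side of the stretch from Apobec3 to Rpl3, and Pdgfb within it. Cbx6, Nptxr and Npcd, which have only the shared probeset, lie between Dnal4 and D730005E14Rik in RefSeq order and were not counted. Only 1 of these 41 genes, D730005E14Rik, was called in BcA86 against C57BL/6J. It is a long non-coding RNA, lies between Cbx6 and Apobec3 in RefSeq order, and its gene model overlaps that of Apobec3 on the other strand. Its log2 expression was 5.38, 5.45 and 5.37 in BcA86, 7.29, 7.87 and 7.17 in CSS12, and 7.17, 7.57 and 7.29 in C57BL/6J, so BcA86 lay apart from both other strains, which overlapped. Its BcA86 level was 0.26 of that in C57BL/6J, a difference of -1.95 (SE 0.18, limma adjusted p = 0.00614), and differed from CSS12 by -2.05 (SE 0.18, limma adjusted p = 0.00465). CSS12 and C57BL/6J differed by 0.10 (adjusted p = 0.879). The call held under all 16 alternatives of the test. Whether its probes and those of Apobec3 share any sequence was not tested.

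One called gene of 41 is 2.44%, beside 0.225% of all probesets called lower in BcA86. The other 40 neighbours had differences of -0.34 to 0.41 between BcA86 and C57BL/6J, with a median of -0.05, and limma called 0. Without adjustment 2 were higher and 8 lower at 0.05, beside 5.2% of all probesets higher and 5.23% lower. The methods' Cyber-T test called 0, beside 2.45% of all probesets. Dnal4, a dynein light chain gene and the next before D730005E14Rik with a probeset of 1 symbol, averaged 6.44 ± 0.04 in BcA86, 6.70 ± 0.05 in CSS12 and 6.71 ± 0.11 in C57BL/6J (SD, n = 3 each). Its difference of -0.26 (SE 0.07) from C57BL/6J was not called (limma adjusted p = 0.247). Gm16576, the gene before it, differed by -0.19 (SE 0.10, limma adjusted p = 0.551).

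Pdgfb, between Cbx7 and Rpl3, averaged 10.39 ± 0.07 in BcA86, 10.31 ± 0.04 in CSS12 and 10.25 ± 0.12 in C57BL/6J (SD, n = 3 each), and its difference of 0.14 from C57BL/6J was not called (limma adjusted p = 0.576). On the other side of Rpl3, Syngr1, a gene of synaptic vesicles, differed by 0.03 (limma adjusted p = 0.954). The small nucleolar RNAs Snord83b and Snord43 lie within introns of Rpl3 and guide chemical changes of other RNAs. Snord83b differed by -0.21 (SE 0.17) and Snord43 by 0.41 (SE 0.17) between BcA86 and C57BL/6J, and neither was called (limma adjusted p = 0.715 and 0.474). In CSS12 against C57BL/6J, limma called 0 of the 41 neighbours, and 3 were higher and 3 lower without adjustment at 0.05, beside 5.5% and 5.19% of all probesets. The methods' Cyber-T test called 1 higher there, beside 1.4% of all probesets.

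**Figure D2:**
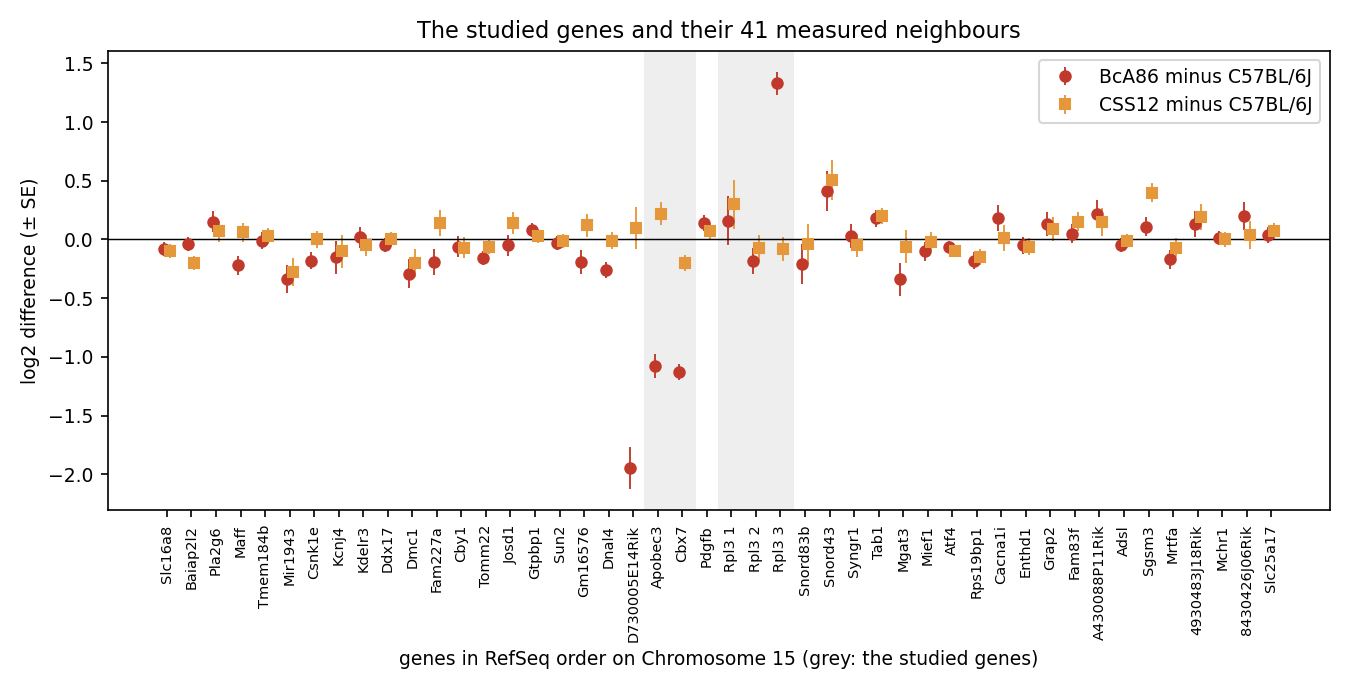
Log2 differences with SE (vertical axis) of BcA86 (circles) and CSS12 (squares) from C57BL/6J for the members (grey bands) and their 41 neighbours in RefSeq order on Chromosome 15. The shared Cbx6 probeset is left out, and Rpl3 probeset 3 is placed by its symbol. D730005E14Rik, Apobec3 and Cbx7 stand side by side at -1.95, -1.08 and -1.13 in BcA86, while the other 40 neighbours lie between -0.34 and 0.41.

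Over all of Chromosome 15, 10 of 880 probesets with 1 symbol (1.14%) were called in BcA86 against C57BL/6J, 3 higher and 7 lower, beside 83 of 22445 (0.37%) on the other chromosomes. In CSS12 against C57BL/6J these were 4 of 880 (0.455%) and 57 of 22445 (0.254%). The 3 called members are among the 10, so the share is partly fixed by the choice of genes, and without the members it was 7 of 875 (0.8%) in BcA86. Single chromosomes varied in BcA86 against C57BL/6J: 9 of 798 probesets (1.13%) were called on Chromosome 12 and 10 of 1094 (0.914%) on Chromosome 8. On Chromosome 16 it was 0 of 738. The share of Chromosome 15 was thus near that of Chromosome 12, which by the study also carries an A/J segment in BcA86. The shares were not set against the A/J content of each chromosome. One of the members, Rpl3 probeset 3, is counted here by its symbol although its number lies among those of the X chromosome. Without it the count was 9 of 879 (1.02%), 2 higher and 7 lower. Counted in measured genes from Apobec3, D730005E14Rik, Cbx7 and, by its symbol, Rpl3 probeset 3 lay within 3 genes. The other called genes lay farther off: Angpt1 289 genes before it, Ly6d 158, Ly6a2 147, Scx 103 and Slc39a4 96, and Ccdc184 211 genes after it.

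Ly6a2, a gene of the Ly6 family of cell surface proteins, differed from C57BL/6J by -3.22 in BcA86 (limma adjusted p = 0.000196) and by -2.19 in CSS12 (limma adjusted p = 0.00767), and was called lower in both. Its means were 6.59 in BcA86, 7.62 in CSS12 and 9.82 in C57BL/6J. Ly6d of the same family averaged 6.75 in BcA86 and 8.35 in C57BL/6J (difference -1.60, limma adjusted p = 0.00885). Scx, a transcription factor of tendon, rose by 0.76 in BcA86 (limma adjusted p = 0.0102, and 0.0547 without BcA86 replicate 2). Ccdc184 rose by 0.79 (limma adjusted p = 0.00525). CSS12 differed from C57BL/6J in the same directions, by -0.98 for Ly6d, 0.35 for Scx and 0.32 for Ccdc184. None of these CSS12 differences was called (limma adjusted p = 0.0933, 0.204 and 0.174). Slc39a4, a zinc importer, fell by 0.79 (limma adjusted p = 0.0397) and passed only 5 of 16 alternatives. With any 1 array left out other than BcA86 replicate 1, its limma adjusted p was 0.0798 to 0.155. In CSS12 against C57BL/6J, Slc39a4 differed by -0.20 (limma adjusted p = 0.594). Of the 2 probesets of Angpt1, a ligand of endothelial cells, 1 was called at -0.66 (limma adjusted p = 0.0352) and the brighter was 0.22 higher (limma adjusted p = 0.559), so they disagreed. The 3 genes called higher in CSS12, Fbxo32, Klhl38 and Dennd3, were neither neighbours nor called in BcA86. Their differences from C57BL/6J were 0.80, 0.88 and 0.44 in CSS12. In BcA86 they were 0.36, 0.41 and 0.39 (limma adjusted p = 0.271, 0.292 and 0.0519). Another probeset of Klhl38 differed by -0.05 in CSS12 (limma adjusted p = 0.837). Without any 1 of the 9 arrays, only 1 or 2 probesets of Chromosome 15 were called in CSS12.

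**Figure D3:**
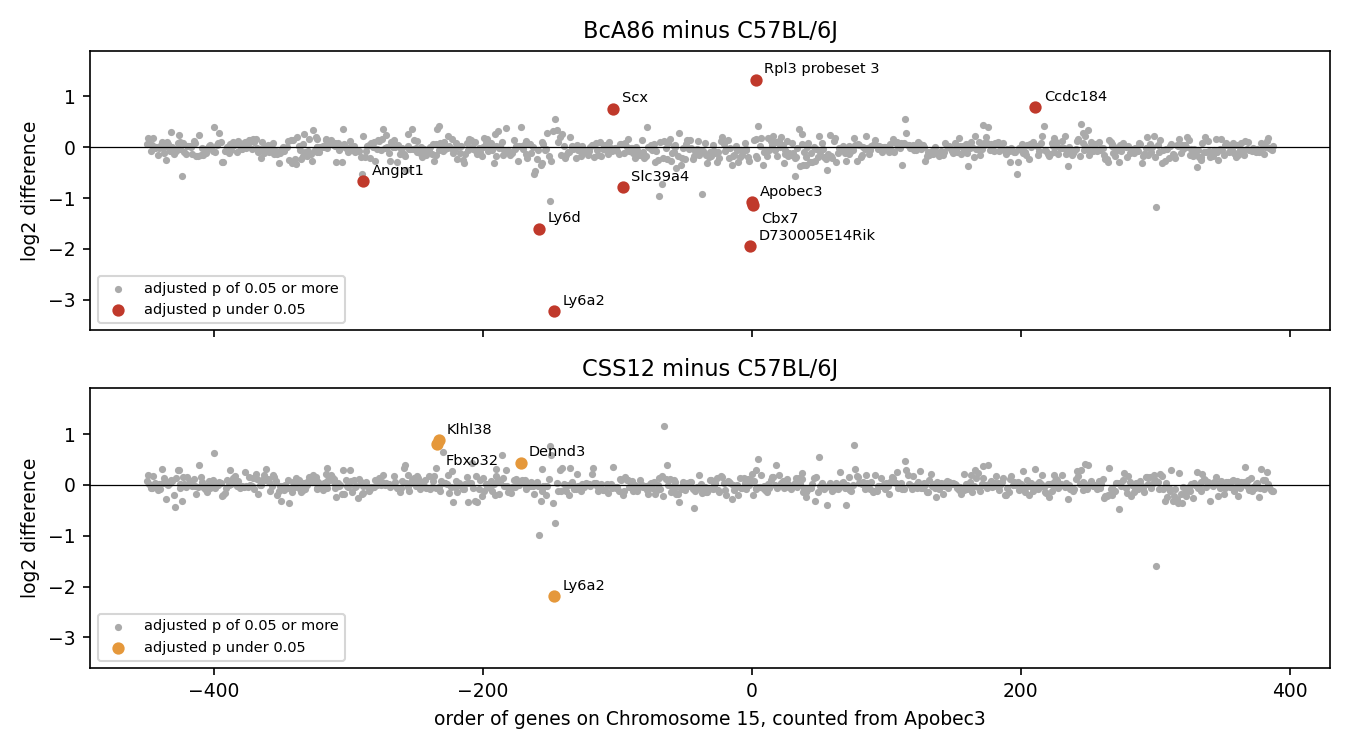
Log2 differences from C57BL/6J (vertical axes) of 880 probesets in gene order along Chromosome 15, counted from Apobec3 (horizontal axis), for BcA86 above and CSS12 below. Coloured points have an adjusted p under 0.05: 10 in BcA86, 3 of them the members Apobec3, Cbx7 and Rpl3 probeset 3, and 4 in CSS12, none of them a member.

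Genes related to the members and markers of cell types were read from 15 lists. In any of the 3 comparisons limma called 0 of their 203 measured probesets. The methods' Cyber-T test called 5 in BcA86 against C57BL/6J, 9 in CSS12 against C57BL/6J and 14 in BcA86 against CSS12. Over the whole array it called 2.45%, 2.61% and 5.26% of probesets in these comparisons. B cell markers were 5 of the 9 Cyber-T calls in CSS12 against C57BL/6J and 9 of the 14 in BcA86 against CSS12. The counts without adjustment that follow stand beside 10.4% of all probesets in BcA86 against C57BL/6J and 10.7% in CSS12 against C57BL/6J. Among ribosomal proteins, 59 of 78 were measured, and their differences between BcA86 and C57BL/6J ran from -0.64 to 0.21, with a median of -0.07 beside 0.00 for all probesets. For Rpl3 probeset 3 the difference was 1.33, the value it was chosen by. Without adjustment, 0 were higher and 4 lower at 0.05. Rpl17, at -0.64 (SE 0.15, limma adjusted p = 0.17), and Rps7, at -0.33 (SE 0.08, limma adjusted p = 0.187), were farthest from 0. The 7 measured paralogs of ribosomal proteins had a median of 0.06, with 0 at an unadjusted p under 0.05.

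For Apobec3 the related genes were its own family, retroviral restriction factors and interferon response genes. In BcA86 against C57BL/6J, the 3 measured AID and APOBEC genes had differences of -0.03 to 0.10, and Apobec1, an editor of apolipoprotein B mRNA, differed by 0.07 (SE 0.12, limma adjusted p = 0.874). The 20 restriction factors had a median of 0.00 and a range of -0.13 to 0.63, and 2 were higher and 0 lower at limma's unadjusted 0.05, beside 5.2% and 5.23% of all probesets. Rsad2, an antiviral enzyme, averaged 8.41 in BcA86, 8.21 in CSS12 and 7.79 in C57BL/6J, and its difference of 0.63 (SE 0.10) from C57BL/6J did not pass (limma adjusted p = 0.0554). The 20 interferon response genes had a median of 0.05 and a range of -0.33 to 0.27, and 1 was lower at limma's unadjusted 0.05.

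For Cbx7, 17 of 20 PRC1 genes were measured and had differences of -0.12 to 0.15 between BcA86 and C57BL/6J, with a median of -0.03 and 0 at an unadjusted p under 0.05. Cbx8, another chromobox protein of the complex, differed by 0.15 (SE 0.08, limma adjusted p = 0.578). The 11 genes of Polycomb repressive complex 2, which writes the mark that Cbx7 reads, ranged from -0.09 to 0.09, and the 3 HP1 chromobox genes from -0.03 to 0.10, each with 0 at an unadjusted p under 0.05. Of 4 cell cycle genes known as Cbx7 targets, Cdkn1a averaged 11.24 in BcA86, 11.15 in CSS12 and 10.51 in C57BL/6J. Its differences of 0.73 in BcA86 (limma adjusted p = 0.0747) and 0.64 in CSS12 (limma adjusted p = 0.132) did not pass. The list's median was 0.13 in both strains, and 2 of 4 were higher in BcA86 without adjustment at 0.05, beside 5.2% of all probesets.

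**Figure D4:**
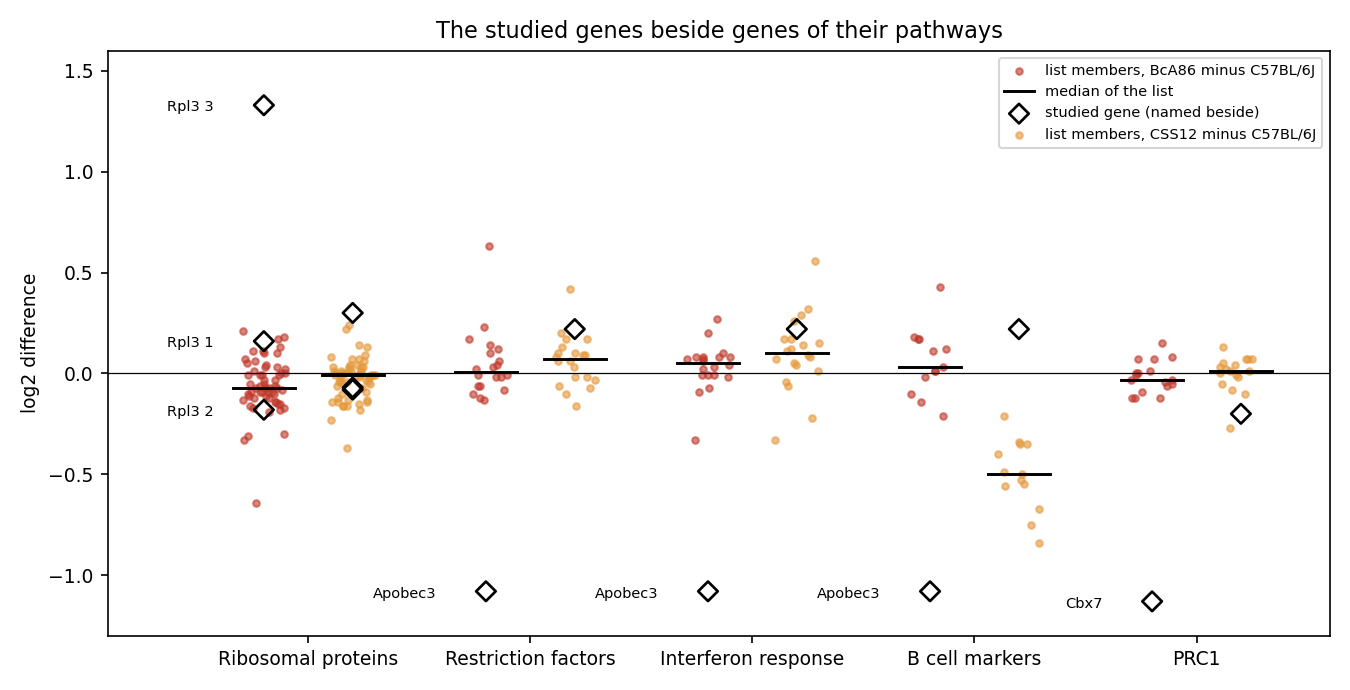
Log2 differences from C57BL/6J (vertical axis) of single genes in 5 lists, with BcA86 at the left and CSS12 at the right of each list, black bars for list medians and open diamonds for the members named beside them. In BcA86 the diamonds lie at -1.08 for Apobec3, -1.13 for Cbx7 and 1.33 for Rpl3 probeset 3, list medians run from -0.07 to 0.05, and the B cell markers have a median of -0.50 in CSS12.

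Apobec3 is known to be expressed strongly in B cells, so markers of cell types were set beside it. The mean of 13 measured B cell markers was 7.79 to 8.17 in BcA86, 7.10 to 7.62 in CSS12 and 7.65 to 8.18 in C57BL/6J. The means of BcA86 and C57BL/6J overlapped. The median difference of the markers between these strains was 0.03, with 0 of 13 at limma's unadjusted 0.05, beside 10.4% of all probesets. In CSS12 the median difference from C57BL/6J was -0.50, with 8 of 13 lower without adjustment at 0.05 and 5 by the methods' Cyber-T test. Of all probesets, 5.19% and 1.21% were lower by these rules. The Apobec3 difference there was 0.22 and did not pass limma's test. The part of B cells in the Apobec3 values was not tested. The mean of 11 T cell markers was 7.20 to 7.38 in BcA86, 6.87 to 7.39 in CSS12 and 7.20 to 7.56 in C57BL/6J.

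The median differences between BcA86 and C57BL/6J were -0.05 for T cell, -0.12 for macrophage and monocyte, -0.02 for lung epithelial and 0.11 for endothelial markers. The mean of 8 endothelial markers was 11.18 to 11.32 in BcA86, 11.21 to 11.23 in CSS12 and 11.07 to 11.18 in C57BL/6J. At an unadjusted p under 0.05 limma gave 2 endothelial markers higher, 1 macrophage and 1 epithelial marker lower and 0 T cell markers, beside 10.4% of all probesets. The part of other cell types in the members' values was not tested.

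Across the 9 arrays, Apobec3 and Cbx7 correlated with r = 0.92, Apobec3 and Rpl3 probeset 3 with r = -0.95, and Cbx7 and Rpl3 probeset 3 with r = -0.95. With strain means removed these were -0.28, 0.49 and 0.31, so the likeness is one of strain means. Rpl3 probeset 3 correlated with r = -0.04 with the first Rpl3 probeset and -0.42 with the second. Likeness was then ranked among 5791 genes that varied by at least 0.5 over the arrays. The members and genes with Gm or Rik names, D730005E14Rik among them, were left out, as were immunoglobulin and T cell receptor segments. Of the genes ranked, those most like Apobec3 were Mmrn1 (r = 0.979), Ssh3 (0.976), Tbc1d9 (0.968), Chst4 (0.956) and Adgrg3 (0.953). The most opposed were Mup-ps12 (-0.971), Trappc2l (-0.968) and Speer4cos (-0.959). None of these 8 lies on Chromosome 15, but D730005E14Rik, which does, was not among the genes ranked. Mmrn1, which encodes a protein of platelets and endothelium, averaged 5.39 in BcA86, 8.94 in CSS12 and 8.69 in C57BL/6J.

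In the same ranking, the genes most like Rpl3 probeset 3 were Ppm1m (0.987), Speer4b (0.983), Nnt (0.976), Trappc2l (0.963) and Speer4cos (0.961). The most opposed were Ssh3 (-0.986), Tbc1d9 (-0.985) and Mmrn1 (-0.984). Nnt, a mitochondrial transhydrogenase that is known to be partly deleted in C57BL/6J, averaged 9.06 in BcA86, 8.16 in CSS12 and 8.14 in C57BL/6J. Trappc2l averaged 10.42 in BcA86, 9.58 in CSS12 and 9.69 in C57BL/6J. The first and second Rpl3 probesets had other neighbours in likeness, led by H2-Q5 (0.899) and Vwc2 (0.963). These correlations are over 9 arrays that share 3 strain means, and they are given as descriptions.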

How the data were processed

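Lung RNA of 9 mice was profiled on Affymetrix Gene 2.0 ST arrays, 3 mice per strain. The authors normalized raw intensities by RMA in FlexArray and deposited 1 log2 value for each probeset in each array. No source used here gives the version of FlexArray or the build behind the annotation. RMA sets all arrays to 1 distribution, and the values were used without further scaling or filtering. Symbols came from the platform's annotation (1 symbol for 23521 probesets, several for 1820, none for 16004), and RefSeq (GRCm38.p6) gave names, gene order, overlap and promoter sequence.

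The strains were compared with limma 3.58.1 in R 4.3.3 in 1 linear model of all 9 arrays without a block, with empirical Bayes variances and Benjamini-Hochberg adjustment over 41345 probesets. The methods' Cyber-T test (window of 101 probesets, prior weight 10) and 15 other alternatives were run (trended and robust variances, only the 2 strains, the replicate number as a block, median-centred arrays, dim probesets left out, array weights, and each array left out), and the code was tested on simulated data. Neighbours were the 20 nearest measured genes on each side, with the brightest probeset per gene. Named are the members, the 3 nearest neighbours on each side, called neighbours, 2 genes of most lists, called genes of Chromosome 15, and for each Rpl3 probeset and Apobec3 genes of the highest and lowest Pearson r over the 9 arrays. The ranking by r left out the members, genes with Gm or Rik names, and immunoglobulin and T cell receptor segments. The genes called higher in CSS12 and the sex-linked genes were named after their values were seen. The members and lists were chosen with earlier results of these data known. Arrays of 1 strain are separate mice, and their number, 3, limits the precision.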

Additional observations from a re-analysis of the deposited data

How the results depend on the processing

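The BcA86 differences of Apobec3, Cbx7 and Rpl3 probeset 3 were called in the same direction in all 16 alternatives, which describes the values the genes were chosen by and is no support for them. Against C57BL/6J they ran from -1.13 to -1.05 for Apobec3, -1.19 to -1.07 for Cbx7 and 1.23 to 1.39 for Rpl3 probeset 3. No member was called in CSS12 against C57BL/6J under any alternative, where Apobec3 ran from 0.10 to 0.29 and adjusted p from 0.357 to 0.733. Rpl3 probeset 2 changed sign there, at 0.02 without C57BL/6J replicate 3, in a range of -0.11 to 0.02 with 1 array left out. Scx passed in 13 of 16 alternatives and Ccdc184 and Ly6a2 in 16 of 16 against C57BL/6J.

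Counts over the whole array moved more than the members did. For BcA86 against C57BL/6J, with 155 called, the counts were 1015 by Cyber-T, 59 with only the 2 strains and 70 to 122 with 1 array left out. For CSS12 against C57BL/6J, with 91 called, they were 1079 by Cyber-T, 7 with only the 2 strains, 10 to 61 with 1 array left out and 203 with trended and robust variances. For BcA86 against CSS12, with 296 called, they were 2173 by Cyber-T, 62 with only the 2 strains, 49 to 196 with 1 array left out, 544 with trended and robust variances, 486 with arrays centred on their medians, 645 without dim probesets and 784 with array weights. Of the calls between BcA86 and CSS12, 184 were higher and 112 lower, against 348 higher and 138 lower after centring, 20 and 42 with only the 2 strains, 19 and 40 without CSS12 replicate 2 and 14 and 35 without CSS12 replicate 3.

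On Chromosome 15, Cyber-T called 27 in BcA86 and 19 in CSS12 against C57BL/6J and 59 in BcA86 against CSS12, and leaving out 1 array gave 7 to 9 in BcA86 and 1 to 2 in CSS12 against C57BL/6J and 4 to 8 in BcA86 against CSS12. Trended and robust variances gave 7 in CSS12 against C57BL/6J and 18 in BcA86 against CSS12, and a fit of only the 2 strains gave 1 and 4. For BcA86 against CSS12, with 9 called, leaving out dim probesets gave 18 and array weights 21. Among the neighbours, Cyber-T called 1 in CSS12 against C57BL/6J and 2 in BcA86 against CSS12, and a neighbourhood of 40 genes on each side gave 2 there. Of the list members, Cyber-T called 5 in BcA86 and 9 in CSS12 against C57BL/6J and 14 in BcA86 against CSS12, trended variances called 2 and leaving out dim probesets called 2 in BcA86 against C57BL/6J, and array weights called 1 in BcA86 against CSS12. The causes were not tested.

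In their deviations from strain means, arrays of the same replicate number correlated at -0.107 to 0.147. Arrays of other numbers correlated at -0.212 to 0.133. These ranges overlap, and with 3 arrays per strain they cannot settle whether the numbers mark a pairing. With the replicate number as a block, 60 probesets were called in BcA86 against C57BL/6J, 27 in CSS12 against C57BL/6J and 136 in BcA86 against CSS12. With the block, Chromosome 15 had 1 call in CSS12 against C57BL/6J and 5 in BcA86 against CSS12, and 1 list member was called in BcA86 against C57BL/6J. With 3 arrays per strain, small differences of the dim Rpl3 probeset 1 could not be resolved.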
